A study of Homo sapiens with 12 samples.

Results

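Matrix proteases and their inhibitors were followed as a set of 9 genes among the 58302 genes of the deposited table. The set was fixed by name: MMP1, MMP2, MMP3 and MMP14, the tissue inhibitors TIMP1, TIMP2 and TIMP3, and the urokinase pair PLAU and PLAUR. RNA came from 12 libraries, 3 for each of 4 lines. TPC1 is a papillary thyroid carcinoma cell line with both DICER1 alleles intact, and D11, WB1 and TD5 are Dicer1 (+/−) clones of it. The clones were made by transient transfection of TPC1 with a CRISPR/Cas9 plasmid whose guide lay in DICER1 exon 11, were sorted as single cells and retain an intact allele; the TPC1 cells were untreated wild type, and the labels give TPC1 and the clones the same serum-containing medium. Each clone grew from 1 cell, so an effect of the DICER1 allele and a difference between clones cannot be told apart. The labels do not say that the 3 libraries of a line came from separate cultures, so p-values measure only the spread between these libraries, which may be technical.

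Matrix metalloproteinases are zinc enzymes that are made as inactive precursors and cut collagens and other matrix proteins once their propeptide is removed. MMP14 sits in the cell membrane and, with TIMP2 as a bridging partner, activates MMP2, while TIMP proteins also block active metalloproteinases. PLAU (urokinase) turns plasminogen into plasmin at the cell surface when bound to its receptor PLAUR, and plasmin in turn can activate several metalloproteinase precursors. In thyroid carcinoma these genes are studied for their part in invasion.

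Values are reads scaled by the authors to 20000000 per library and rounded up to whole numbers, called scaled reads below; 20 of them equal 1 read per 1000000. The reads behind a library were estimated at 12700000 to 21020000, so that 3 reads, taken as the floor of detection, equal 2.85 to 4.72 scaled reads. This floor covers counting error only. DICER1, the targeted gene, had 1360, 1129 and 1101 scaled reads in TPC1, 977, 1051 and 1093 in D11, 881, 939 and 815 in WB1, while TD5 had 643, 627 and 809. On the log2 scale D11 differed from TPC1 by −0.19 (limma, adjusted p = 0.138), WB1 by −0.43 (adjusted p = 0.00404) and TD5 by −0.77 (adjusted p = 9.02e-05). The reads do not cover the guide site separately and the intact and edited alleles are counted together, so the level by itself does not check the edit. Of the thyroid markers, PAX8 was high (7248 to 9879 scaled reads) and TG was at 11 to 27, FOXE1 was at 280 to 316 in TPC1, 123 to 171 in D11, 112 to 151 in WB1 and 93 to 131 in TD5, while NKX2-1, TSHR and SLC5A5 were listed at 0 in the 12 libraries. Endothelial markers summed to at most 0.45 per 1000000, and of the leukocyte markers PTPRC was at 0 to 3 scaled reads but CD68, a lysosomal protein of macrophages, was at 921 to 1148 in TPC1, 972 to 1125 in D11, 1248 to 1514 in WB1 and 1207 to 1359 in TD5. The leukocyte markers summed to 46.1 to 57.5 per 1000000 in TPC1, 48.8 to 56.2 in D11, 62.4 to 75.7 in WB1 and 60.4 to 68 in TD5, and their part in the results was not tested. The epithelial markers summed to 1070 to 1220 per 1000000 in TPC1. In D11 they summed to 859 to 934, in WB1 to 905 to 929 and in TD5 to 844 to 966. Of the epithelial markers, KRT19, EPCAM and CDH1 had at most 6 scaled reads, and the part of these markers was not tested either.

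Promoter sequences came from RefSeq (GRCh38.p14, 250 bases before each start) and matched 5 of the 9 genes, PLAU, PLAUR, MMP14, TIMP1 and TIMP3; those of MMP1, MMP2, MMP3 and TIMP2 were not used here. The 3 stretches here belong to genes described further on, and no level was tested against their letters. The PLAU stretch (chr10:73910360-73910604, plus strand), before the more upstream of the starts listed for the gene, lies wholly within an annotated exon of C10orf55, a long non-coding RNA gene on the opposite strand whose level ran with that of PLAU. It also lies inside the wider annotated span of PLAU itself (chr10:73909177-73917496), outside the PLAU exons. The TIMP3 stretch (chr22:32801455-32801704, plus strand) precedes the gene that was listed at 0 in the 12 libraries. In both, capitals mark each CG pair.
PLAU: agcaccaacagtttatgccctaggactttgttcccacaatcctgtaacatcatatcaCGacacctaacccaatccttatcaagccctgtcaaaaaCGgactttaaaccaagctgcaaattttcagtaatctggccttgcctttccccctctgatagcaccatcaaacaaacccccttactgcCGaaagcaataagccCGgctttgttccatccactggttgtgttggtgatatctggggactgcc
TIMP3: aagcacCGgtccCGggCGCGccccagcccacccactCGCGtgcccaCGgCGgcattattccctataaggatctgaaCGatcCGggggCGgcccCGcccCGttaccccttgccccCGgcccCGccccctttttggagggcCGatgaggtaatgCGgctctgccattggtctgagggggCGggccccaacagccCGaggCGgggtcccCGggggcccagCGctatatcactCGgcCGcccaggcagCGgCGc
The TIMP3 stretch holds 26 CG pairs in 250 bases, and 19.6% of the 35116 promoters of that table hold as many or more; the PLAU stretch holds 4, against a median of 11 over those promoters, while the window before the other listed PLAU start (chr10:73910882-73911131) holds 24. The PLAUR stretch (chr19:43670339-43670365, minus strand) is shown for the AP-1 letters TGAGTCA, in capitals, whose first base lies 186 bases before the RefSeq start. This stretch also lies inside the wider annotated span of PLAUR (chr19:43646095-43670547). AP-1 is the dimer of FOS and JUN proteins, and FOS is among the genes described below.
PLAUR: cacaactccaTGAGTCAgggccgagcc
The letters TGAGTCA or their reverse complement TGACTCA stand in 4.203% of the promoters, and TATAAA or its reverse complement TTTATA in 10.716%. Neither motif was found in the windows of PLAU, MMP14, TIMP1 or TIMP3, nor TATAAA in that of PLAUR, which says only that these letters are not in these windows.

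The levels spanned a wide range, and are compared between genes per kilobase of the annotated main transcript. PLAU stood highest in TPC1, with 7190 scaled reads per kilobase on average, and its lowest library of the 12 (6200) was above the highest of TIMP1 (4230). TIMP1 followed with 3950 per kilobase in TPC1. TIMP2 (2970) and MMP14 (2460) came next. In TPC1 each TIMP2 library (10591 to 11203 scaled reads, transcript of 3652 bases) was above each MMP14 library (8348 to 9691, transcript of 3701 bases). Over the 12 libraries their ranges overlapped, with 1960 to 3070 per kilobase for TIMP2 and 1990 to 2940 for MMP14. PLAUR was at 1120 and MMP2 at 603 per kilobase in TPC1. The interstitial collagenase MMP1 and stromelysin MMP3 were far lower, at 12.3 and 4.39 per kilobase. TIMP3 (chr22:32801705-32863041 of GRCh38) was listed at 0 in each library, which over 193375000 estimated reads allows up to 0.0155 per 1000000 by the 3-read limit, and 0.143 to 0.236 per 1000000 in a single library.

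**Figure D1:**
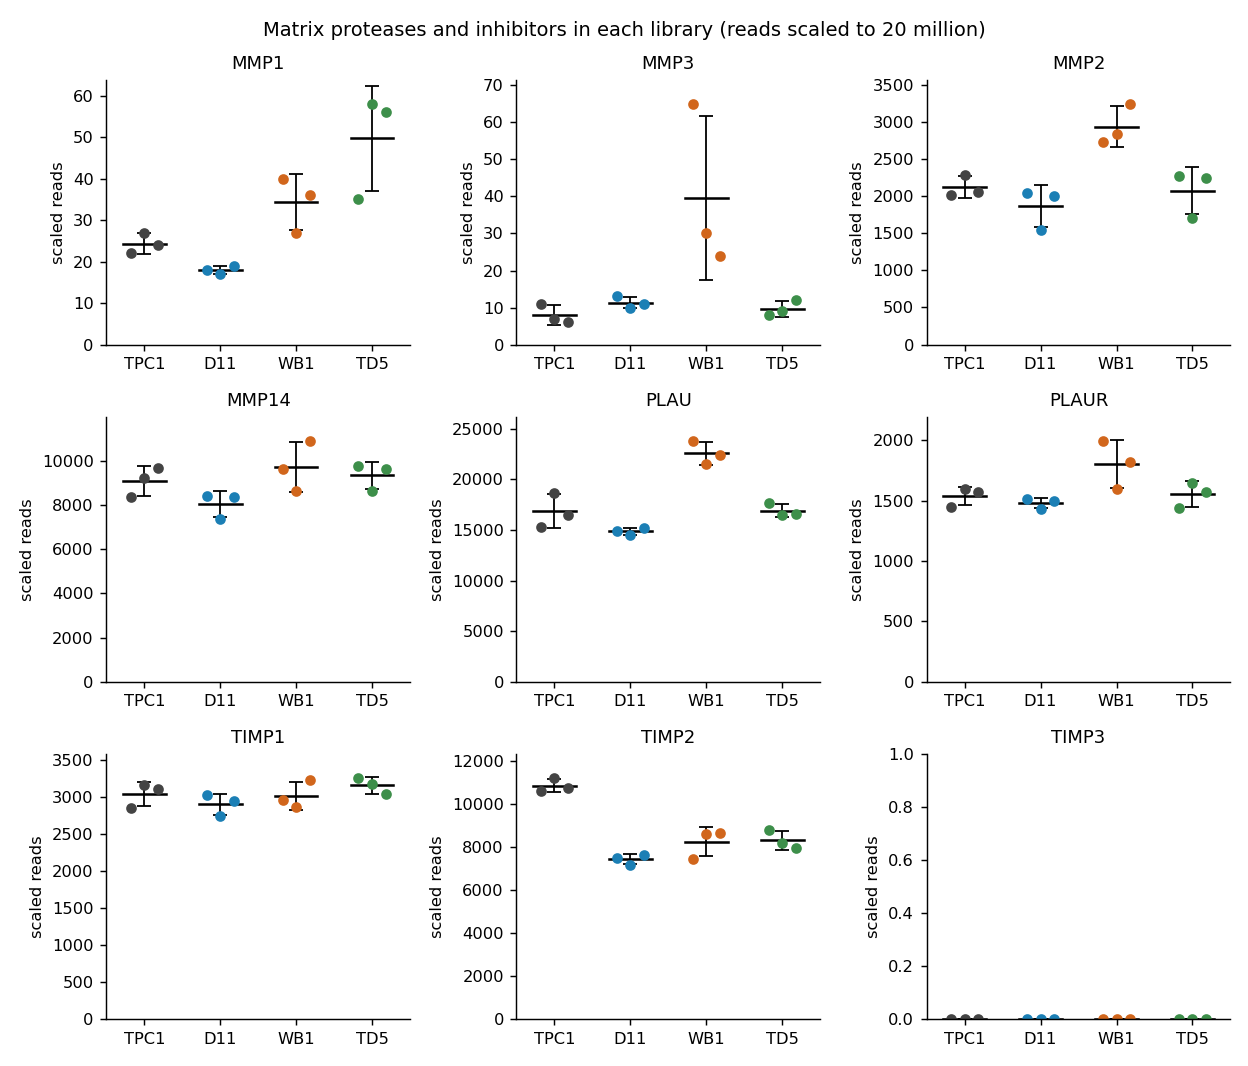
Scaled reads of the 9 genes (vertical axes, each starting at 0) in the 3 libraries of each line (points), with the mean (bar) and SD (whisker). TIMP2 lies at 10591 to 11203 in TPC1 and at or below 8806 in the 9 clone libraries, PLAU and MMP2 are highest in WB1, MMP1 is highest in TD5, and TIMP3 is 0 throughout.

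The comparison of each clone with TPC1 asks how loss of a DICER1 allele goes with the mRNA of these genes. A gene was called at an adjusted p under 0.05 (limma, Benjamini-Hochberg over the 16027 genes tested) together with a change of at least 1.5-fold on the scale log2(value per 1000000 + 1). Of the 9 genes, 8 passed the filter of at least 1 per 1000000 in at least 3 libraries, and TIMP3 did not. Called members numbered 0 in D11 (3 at an unadjusted p under 0.05), 1 in WB1 (MMP3) and 1 in TD5 (MMP1), against 4.84%, 4.99% and 2.6% of genes called in the same comparisons. The share of genes at an unadjusted p was not taken here or below, and is no smaller than the share at an adjusted p. MMP3 passed the filter only through the 3 WB1 libraries, in which it is high, so its call in WB1 is no support for a count. At an adjusted p under 0.05 whatever the fold, 2 members passed in D11 (TIMP2 and PLAU, both lower; PLAU lost its pass under several alternatives given with its values), 5 in WB1 (4 higher, 1 lower) and 2 in TD5 (1 higher, 1 lower), where 33.3%, 30.9% and 11.9% of genes did. PLAUR, among the 5 in WB1, also lost its pass under several alternatives given with its values. The libraries of clone and parent did not overlap for 3, 5 and 2 members, against 50.6%, 45.3% and 26.5% of genes. The median log2 difference over the 8 tested members was −0.18 in D11, 0.26 in WB1 and 0.03 in TD5, beside 0.05, 0.06 and 0.00 over the genes tested, and is given as a description only. These 3 comparisons share the TPC1 libraries.

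TIMP2, the inhibitor that also bridges MMP14 to the MMP2 precursor, was lower in the 3 clones than in TPC1, by less than 1.5-fold in each. It had 10591, 11203 and 10755 scaled reads in TPC1, 7493, 7173 and 7626 in D11, 7454, 8590 and 8665 in WB1, while TD5 had 8806, 8170 and 7954. In bulk RNA of this kind, fewer cells with the mRNA and less of it per cell cannot be told apart. The 9 clone libraries lay below the 3 TPC1 libraries without overlap, a pattern found in 6.51% of the genes tested. The clone means were 68.5%, 75.9% and 76.6% of the TPC1 mean of 10849.7 ± 317 (SD, n = 3). The log2 difference was −0.55 in D11 (95% interval −0.68 to −0.42, limma adjusted p = 1.25e-05), −0.40 in WB1 (−0.53 to −0.27, adjusted p = 0.000241) and −0.39 in TD5 (−0.52 to −0.25, adjusted p = 0.000671). D11 crossed 1.5-fold when libraries were scaled by the median of ratios (−0.60) or corrected for transcript length (−0.59). Between clones, TD5 differed from D11 by 0.16 (adjusted p = 0.07, and 0.0327 with the libraries paired by number in a fit of these lines alone) and from WB1 by 0.02 (adjusted p = 0.895). The pairing was chosen after seeing the data.

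TIMP1, a secreted inhibitor (chrX:47582408-47586789), had a narrow range over the 12 libraries (2742 to 3250 scaled reads). It had 2851, 3154 and 3101 scaled reads in TPC1, 3016, 2742 and 2935 in D11, 2951, 2863 and 3218 in WB1, while TD5 had 3250, 3166 and 3034. Its libraries overlapped between TPC1 and each clone, the log2 differences were −0.07, −0.01 and 0.05, and their 95% intervals, −0.20 to 0.07, −0.14 to 0.12 and −0.08 to 0.19, leave out a change of 1.5-fold. The sign of the D11 and WB1 values turned under a correction for GC content. The ratio of TIMP2 to TIMP1 within a library, which does not depend on the scaling, was 3.47 to 3.71 in TPC1 and 2.48 to 3 in the clones.

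MMP2, the gelatinase that degrades the type IV collagen of basement membranes, was highest in WB1. Its scaled reads were 2020, 2287 and 2052 in TPC1, 2046, 1539 and 2002 in D11, 2722, 2840 and 3241 in WB1, while TD5 had 2264, 1706 and 2248. The 3 WB1 libraries lay above the other 9, and D11 and TD5 overlapped TPC1. WB1 was at 138% of the TPC1 mean and passed the threshold on p but not on fold (log2 difference 0.46, 95% interval 0.23 to 0.70, limma adjusted p = 0.00592). D11 differed by −0.19 (adjusted p = 0.189) and TD5 by −0.04 (adjusted p = 0.859).

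MMP14, the membrane-bound activator of MMP2 (chr14:22836560-22849041), had 8348, 9231 and 9691 scaled reads in TPC1, 8386, 7353 and 8380 in D11, 9637, 8627 and 10896 in WB1, while TD5 had 9758, 8629 and 9615. The libraries of TPC1 and of each clone overlapped. The log2 differences were −0.18 in D11 (95% interval −0.35 to −0.004, limma adjusted p = 0.104), 0.09 in WB1 (−0.08 to 0.27) and 0.04 in TD5 (−0.13 to 0.21). The D11 value gained a pass on p under some alternatives, as with median-of-ratios scaling (−0.24, adjusted p = 0.0473). Its adjusted p ran from 0.0359 to 0.518 over the alternatives run. The WB1 and D11 libraries did not overlap, with a difference of 0.27 (adjusted p = 0.0524).

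The ratio of MMP14 to TIMP2 in the same library was 0.788, 0.824 and 0.901 in TPC1, 1.12, 1.03 and 1.1 in D11, 1.29, 1 and 1.26 in WB1, while TD5 had 1.11, 1.06 and 1.21. The TPC1 libraries were the lowest of the 12. MMP2 to TIMP2 was 0.191 to 0.204 in TPC1, 0.215 to 0.273 in D11, 0.331 to 0.374 in WB1 and 0.209 to 0.283 in TD5, again without overlap with TPC1. These ratios of mRNA were chosen because the proteins form a complex; they were described and not tested, and they share the TIMP2 values already given.

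**Figure D2:**
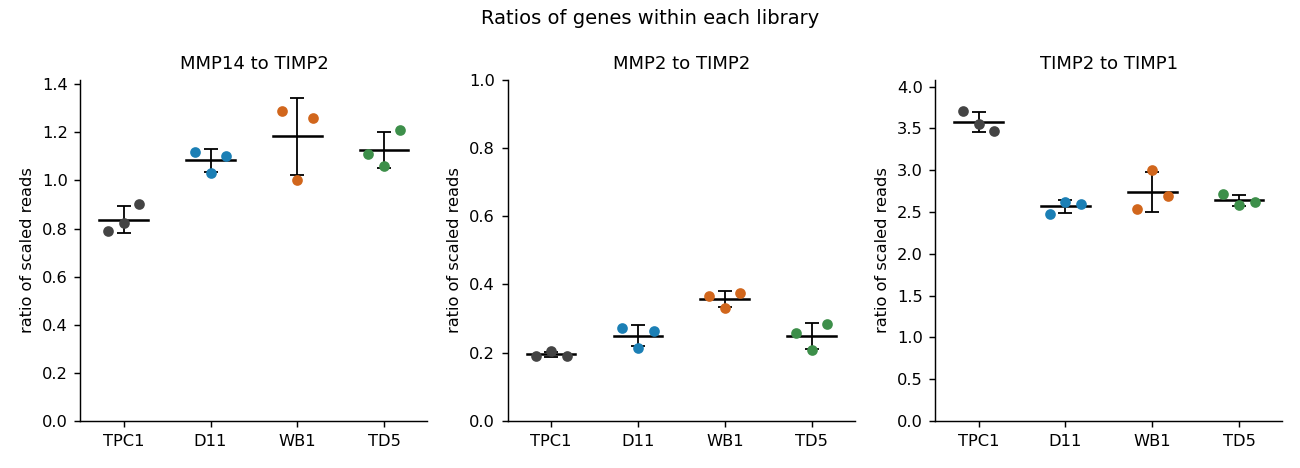
Ratios of scaled reads within each library (vertical axes, starting at 0) of MMP14 to TIMP2, MMP2 to TIMP2 and TIMP2 to TIMP1, by line, with points for libraries, bars for means and whiskers for SD. MMP14 to TIMP2 is 0.788 to 0.901 in the TPC1 libraries and 1 to 1.29 in the clones.

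The collagenase MMP1 was low in each line and highest in TD5. It had 22, 27 and 24 scaled reads in TPC1, 18, 17 and 19 in D11, 40, 27 and 36 in WB1, while TD5 had 35, 58 and 56, which rest on 13.1 to 44.5 estimated reads per library. The TD5 libraries lay above those of TPC1, and the D11 libraries below them. MMP1 rose in TD5 to 204% of the TPC1 mean of 24.3 ± 2.52 (SD, n = 3), with a log2 difference of 0.64 on the scale with a pseudocount of 1, which understates the change of low genes (95% interval 0.33 to 0.94, limma adjusted p = 0.00866). The value was 0.55 without TD5 replicate 2 and 0.56 without TD5 replicate 3, both under 1.5-fold, and 0.31 with a pseudocount of 4. The differences were 0.29 in WB1 (adjusted p = 0.14) and −0.22 in D11 (adjusted p = 0.248).

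The stromelysin MMP3, whose protein can activate the MMP1 precursor, was above 1 per 1000000 only in WB1. It had 11, 7 and 6 scaled reads in TPC1, 13, 10 and 11 in D11, 65, 30 and 24 in WB1, while TD5 had 8, 9 and 12. The WB1 libraries hold 20.4 to 56.3 estimated reads and those of TPC1 4.1 to 11.6, and the WB1 values did not overlap the other 9. WB1 replicate 1 stood well above the other WB1 libraries. The log2 difference of WB1 from TPC1 was 1.03 (95% interval 0.64 to 1.43, limma adjusted p = 0.000866); it was 0.43 with a pseudocount of 4, and leaving out any WB1 library took MMP3 below the filter. MMP1 and MMP3 are neighbours on the minus strand of chromosome 11 (chr11:102789401-102798160 and chr11:102835801-102843609 of GRCh38), 37.6 kilobases apart. Their highest lines differed, with MMP3 to MMP1 at 0.667 to 1.62 in WB1 and 0.155 to 0.229 in TD5.

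PLAU, the plasminogen activator and most abundant of the 9, was highest in WB1. It had 15344, 18650 and 16514 scaled reads in TPC1, 14853, 14523 and 15180 in D11, 23801, 21521 and 22458 in WB1, while TD5 had 17678, 16468 and 16574. The WB1 libraries lay above the other 9, the D11 libraries below the other 9, and TD5 overlapped TPC1. WB1 was at 134% of TPC1 (log2 difference 0.43, 95% interval 0.29 to 0.56, limma adjusted p = 0.000197) and D11 at 88.2% (−0.18, −0.31 to −0.04, adjusted p = 0.0445), both short of 1.5-fold. The D11 value did not pass on p under 10 of 22 alternatives (adjusted p from 0.012 to 0.243 over the 22), with an adjusted p of 0.0728 with the replicate block, 0.19 with the GC correction (−0.12) and 0.238 without TPC1 replicate 2 (−0.10). TD5 differed by 0.01 (adjusted p = 0.944).

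PLAUR, the urokinase receptor (chr19:43646095-43670547), had a smaller range. It had 1451, 1593 and 1572 scaled reads in TPC1, 1511, 1430 and 1494 in D11, 1994, 1598 and 1823 in WB1, while TD5 had 1440, 1647 and 1575. The WB1 libraries lay just above TPC1, with 5 scaled reads between the lowest WB1 and the highest TPC1 library. The log2 difference was 0.22 in WB1 (95% interval 0.06 to 0.39, limma adjusted p = 0.0377), −0.06 in D11, where it was 0.021 with a correction for GC content, and 0.01 in TD5. The WB1 value lost its pass on p under several alternatives (adjusted p from 0.00543 to 0.184 over the alternatives run). It had an adjusted p of 0.134 under median-of-ratios scaling and 0.184 without WB1 replicate 1. PLAU to PLAUR was 10.5 to 11.7 in TPC1, 9.83 to 10.2 in D11, 11.9 to 13.5 in WB1 and 10 to 12.3 in TD5.

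**Figure D3:**
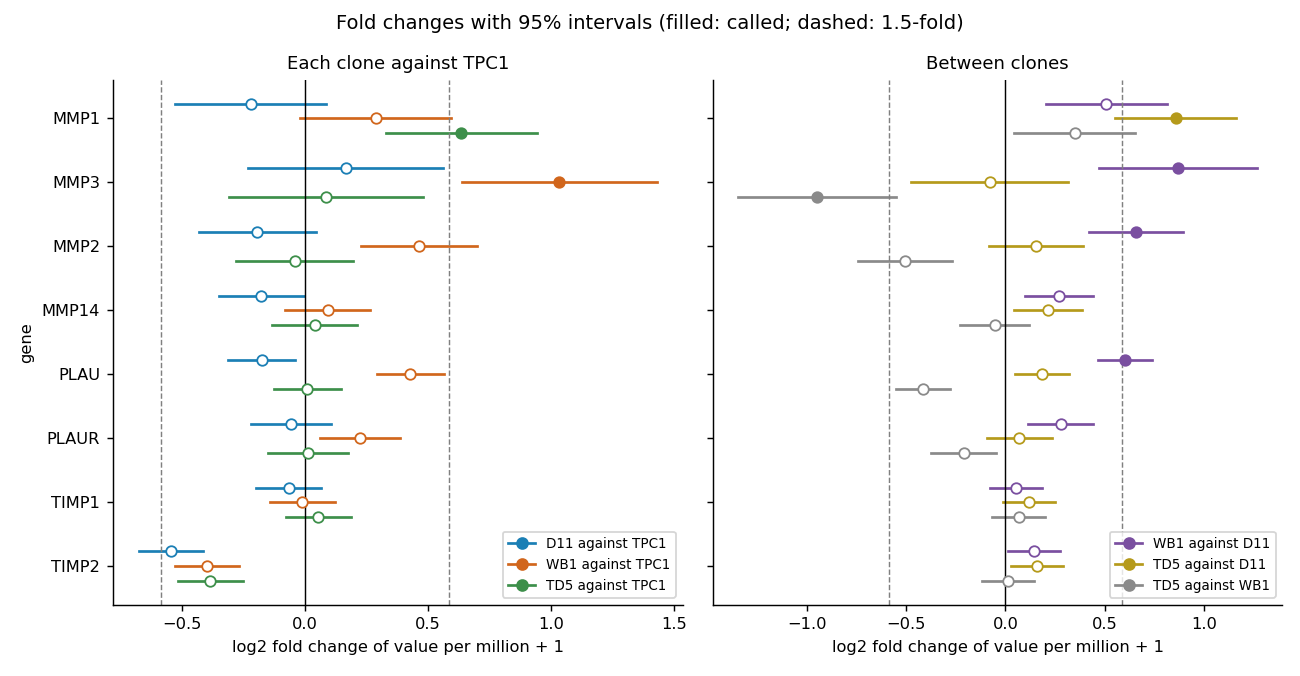
Log2 fold changes (horizontal axes, of the value per 1000000 + 1) of the 8 tested genes with 95% intervals, for each clone against TPC1 and between clones; filled points were called, and dashed lines mark 1.5-fold. TIMP2 lies between −0.55 and −0.39 in the 3 clones, while called points are MMP1 in TD5 (0.64) and MMP3 in WB1 (1.03) on the left and 5 on the right.

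The clones were also compared with each other. WB1 against D11 gave 3 called members, MMP2 (log2 difference 0.66, limma adjusted p = 0.000967), PLAU (0.60, adjusted p = 7.48e-06) and MMP3 (0.87, adjusted p = 0.00658), where 2.85% of genes were called. TD5 against D11 gave 1, MMP1 (0.86, adjusted p = 0.000634), where 3.99% were, and TD5 against WB1 gave 1, MMP3 (−0.95, adjusted p = 0.00402), where 2.33% were. MMP3 entered the test only through the WB1 libraries, in which it is high, so neither of its calls supports a count. At an adjusted p under 0.05 whatever the fold, 5, 2 and 3 members passed, beside 8.07%, 23.2% and 13.6% of genes. For TD5 against D11 the 2 were MMP1 and PLAU. The adjusted p of PLAU there ran from 0.0128 to 0.15 over the alternatives run. With the libraries paired by number in a fit of these lines alone the count was 4, adding MMP14 (adjusted p = 0.00423) and TIMP2 (adjusted p = 0.0327). That pairing was chosen after seeing the data. The 5 in WB1 against D11 were higher in WB1, adding PLAUR (0.28, adjusted p = 0.0322) and MMP1 (0.51, adjusted p = 0.0383). Over the alternatives run, these adjusted p values ran from 0.00769 to 0.167 for PLAUR and from 0.0178 to 0.153 for MMP1. MMP2 was under 1.5-fold without D11 replicate 2 (0.53) or WB1 replicate 3 (0.58), and PLAU without WB1 replicate 1 (0.57) or with a correction for GC content (0.58). Over the 4 lines, a moderated F test gave an adjusted p of 2e-05 for PLAU, 3.36e-05 for TIMP2, 0.00116 for MMP3, 0.00119 for MMP1, 0.00131 for MMP2, 0.0304 for PLAUR, 0.0529 for MMP14 and 0.395 for TIMP1. MMP3 entered the F test, too, only through the WB1 libraries, so its value there is no support for a difference among lines.

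WB1 also differed in a fibroblast marker. LUM was at 63 to 78 scaled reads in TPC1, 0 in D11, 138 to 212 in WB1 and 0 to 2 in TD5, but PDGFRB was lowest in WB1 (37 to 56, beside 112 to 192 in TPC1), DCN was at 0 in the 12 libraries and COL3A1 at 0 to 2. The 5 fibroblast markers summed to 11.7 to 17.8 per 1000000 in WB1, 12.8 to 18.1 in TPC1, 8.25 to 10.1 in D11 and 9.35 to 10.9 in TD5, with 3 of the 5 at 1 per 1000000 or more in at least 3 libraries. Their part in the WB1 values of MMP2, MMP3 and PLAU was not tested.

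Several members share their locus with other genes, and the split of reads between partners is uncertain, because the sources used here do not say whether counting used the strand. C10orf55 lies across much of PLAU on the opposite strand (chr10:73909969-73922777), with 36.4% of its exon bases inside PLAU exons (chr10:73909177-73917496 for PLAU). It had 4921, 5914 and 5175 scaled reads in TPC1, 4692, 4598 and 4902 in D11, 7581, 6917 and 7022 in WB1, while TD5 had 5244, 5132 and 5095. C10orf55 to PLAU was 0.297 to 0.323 over the 12 libraries, and its log2 difference from TPC1 in WB1 was 0.43, as for PLAU. For TIMP2 (chr17:78852977-78925387), AC022966.2, an antisense RNA gene of 367 bases that lies wholly in a TIMP2 exon, had 1456 to 2423 scaled reads and a ratio of 0.197 to 0.225. CEP295NL, on the TIMP2 strand with 9.9% of its exon bases in TIMP2 exons, had 749 to 1234 and a ratio of 0.1 to 0.114. Both were lower in the 3 clones, at 63.3%, 71.8% and 71.2% of TPC1 for AC022966.2 and 64%, 76.4% and 72.7% for CEP295NL, and both fell in D11 (log2 difference −0.65 and −0.63, limma adjusted p = 4.78e-06 and 1.2e-05). AC007336.3, on the MMP2 strand (chr16:55389700-55506691 for MMP2), had 147 to 350 and a ratio to MMP2 of 0.0955 to 0.129. WTAPP1, opposite MMP1 and MMP3, was low and not tested. It had 8 to 10 scaled reads in TPC1, 2, 8 and 8 in D11, and 14, 11 and 13 in WB1. TD5 had 2, 22 and 24, so its highest values stood in the TD5 replicates 2 and 3 in which MMP1 was also highest. WTAPP1 to MMP1 ran from 0.0571 to 0.471 over the 12 libraries. SYN1 and SYN3, opposite TIMP1 and TIMP3, had 6 to 14 and 0 to 2.

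The genes whose pattern was most like a member's were those with the highest Pearson correlation over the 12 libraries, on the log2 scale. For PLAU these were C10orf55 (r = 0.991), the metalloprotease-disintegrin ADAM28 (0.947) and the interferon-induced IFIT3 (0.944). For TIMP2 they were AC022966.2 (0.987), CEP295NL (0.983) and SHF (0.963). MMP2 was followed by KIAA1217 (0.933), DISP1 (0.924) and AC007336.3 (0.92), and PLAUR by LAT (0.937), ABL1 (0.93) and AC109460.4 (0.922). For MMP1 they were the monoglyceride lipase MGLL (0.969), MELTF (0.95) and the kinase MAPK7 (0.924), for TIMP1 ATRAID (0.957), STAT6 (0.95) and CLIC1 (0.899), and for MMP14 FAM102A (0.88), IQSEC2 (0.877) and SH3BGRL3 (0.874). Libraries share a line, so the 12 points are not independent. Among members, PLAU and MMP2 had r = 0.874 and PLAU and PLAUR r = 0.83, while TIMP2 had r = 0.053 with PLAU and 0.133 with MMP2.

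Other genes of the pathway were taken from lists, chosen with earlier results of these data known. Their counts of called genes are given as a description only. Over the genes tested, 4.84% were called in D11, 4.99% in WB1 and 2.6% in TD5 against TPC1. Of the 19 other MMP genes, 6 were tested, 6 were at 0 in the 12 libraries, and the 1 called against TPC1 was MMP16, a membrane-type enzyme, which rose in WB1 (868 to 1117 scaled reads in TPC1, 1499 to 1731 in WB1, log2 difference 0.63, limma adjusted p = 0.000302). The gelatinase MMP9 had 0 to 6 scaled reads and was not tested. Of 5 other inhibitors, 2 were tested. TFPI2, an inhibitor of plasmin and other serine proteases, had 98 to 138 scaled reads in TPC1, 40 to 78 in D11, 126 to 166 in WB1 and 40 to 68 in TD5. TFPI2 fell in D11 (−0.90, adjusted p = 0.00178) and in TD5 (−0.92, adjusted p = 0.0029) but was at 0.19 in WB1 (adjusted p = 0.446). RECK, a membrane-anchored inhibitor, was at 171 to 236 scaled reads in the 12 libraries, and TIMP4, at 0 to 4, was not tested.

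Of 13 other genes of plasminogen activation, 8 were tested and 1 was called against TPC1. SERPINE2, an inhibitor of urokinase and thrombin, had 1683 to 1863 scaled reads in TPC1, 1420 to 1578 in D11, 2552 to 2770 in WB1 and 2209 to 2818 in TD5. SERPINE2 rose in WB1 (0.60, limma adjusted p = 6.09e-05), and TD5 passed on p but not on fold (0.53, adjusted p = 0.000331).

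Of 20 ADAM and ADAMTS genes, 16 were tested. Of these, 2 rose in D11, 4 rose and 1 fell in WB1, and limma called 0 in TD5, with 4 at an unadjusted p under 0.05. At an adjusted p under 0.05 whatever the fold, 2 passed in TD5, beside 11.9% of the genes tested. The shares called over the genes tested were 4.84% in D11, 4.99% in WB1 and 2.6% in TD5. ADAM8, a metalloprotease of leukocytes and tumour cells, rose in D11 (log2 difference 1.03, limma adjusted p = 0.000479) and WB1 (1.17, adjusted p = 0.000163), from 63 to 69 scaled reads in TPC1 to 141 to 169 and 137 to 213. ADAM28 rose in WB1 from 12 to 23 up to 62 to 81 scaled reads (1.30, adjusted p = 9.58e-06), and ADAM12 from 390 to 534 up to 795 to 854 (0.80, adjusted p = 0.000208). ADAM28 reached 1 per 1000000 in the WB1 libraries and 1 TPC1 library alone, so it was tested only through the line in which it is high and adds no support to the count of 4. ADAMTS6 rose in D11 (0.74, adjusted p = 0.000479). ADAM19, higher in WB1 (0.59, adjusted p = 0.000172), and ADAMTS15, lower there (−0.74, adjusted p = 0.00108), lie outside the rule for named genes and were named after their values were seen. Of 16 convertase and cell-surface partner genes, 11 were tested and limma called 0 in D11, 0 in WB1 and 0 in TD5 against TPC1, with 6, 8 and 4 at an unadjusted p under 0.05. At an adjusted p under 0.05 whatever the fold, 6, 7 and 4 passed, beside 33.3%, 30.9% and 11.9% of the genes tested.

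Of 20 matrix substrate genes, 18 were tested. The type V collagen gene COL5A2 had 689 to 868 scaled reads in TPC1 and 97 to 135 in D11, where it fell (log2 difference −2.48, limma adjusted p = 1.5e-10), and 617 to 923 in the other clones. COL4A1, a basement membrane collagen and substrate of MMP2, fell in D11 (−0.71, adjusted p = 8.32e-07). It was also lower in WB1 (−0.23, limma adjusted p = 0.0116) and TD5 (−0.21, adjusted p = 0.04), short of 1.5-fold in both. The glycoprotein TNC rose in WB1 (1.28, adjusted p = 9.96e-06) and TD5 (0.87, adjusted p = 0.000592), and COL5A1 fell in TD5 (−0.83, adjusted p = 0.00109). COL5A1 was also lower in D11 (−0.42, limma adjusted p = 0.0307) and WB1 (−0.52, adjusted p = 0.011), again short of 1.5-fold. Of 13 AP-1 and ETS factor genes, 13 were tested. FOS rose in WB1 (1.11, adjusted p = 6.31e-05) and TD5 (1.12, adjusted p = 0.000123), from 8 to 16 scaled reads in TPC1 to 43 to 52 and 38 to 62. In D11 it passed on p but not on fold (0.58, limma adjusted p = 0.00755), at 22 to 30 scaled reads. FOS reached 1 per 1000000 in clone libraries only. The ETS factor ETV1 rose in WB1 (0.74, adjusted p = 0.000726). ETV1 in D11 passed on p but not on fold (0.50, adjusted p = 0.00842).

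The medians of these lists, as log2 differences from TPC1, stand beside those over the genes tested, which were 0.05 in D11, 0.06 in WB1 and 0.00 in TD5. For the other MMP genes D11, WB1 and TD5 had medians of −0.16, 0.01 and −0.04, and for the other inhibitors −0.37, 0.09 and −0.45, over 2 genes. Plasminogen activation genes had −0.02, 0.28 and 0.13, ADAM and ADAMTS genes 0.03, 0.08 and −0.02, and convertase and partner genes −0.19, 0.08 and −0.01. Matrix substrate genes had −0.28, −0.10 and −0.16, lower than the genes tested in each clone, and AP-1 and ETS genes 0.03, 0.07 and 0.20.

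**Figure D4:**
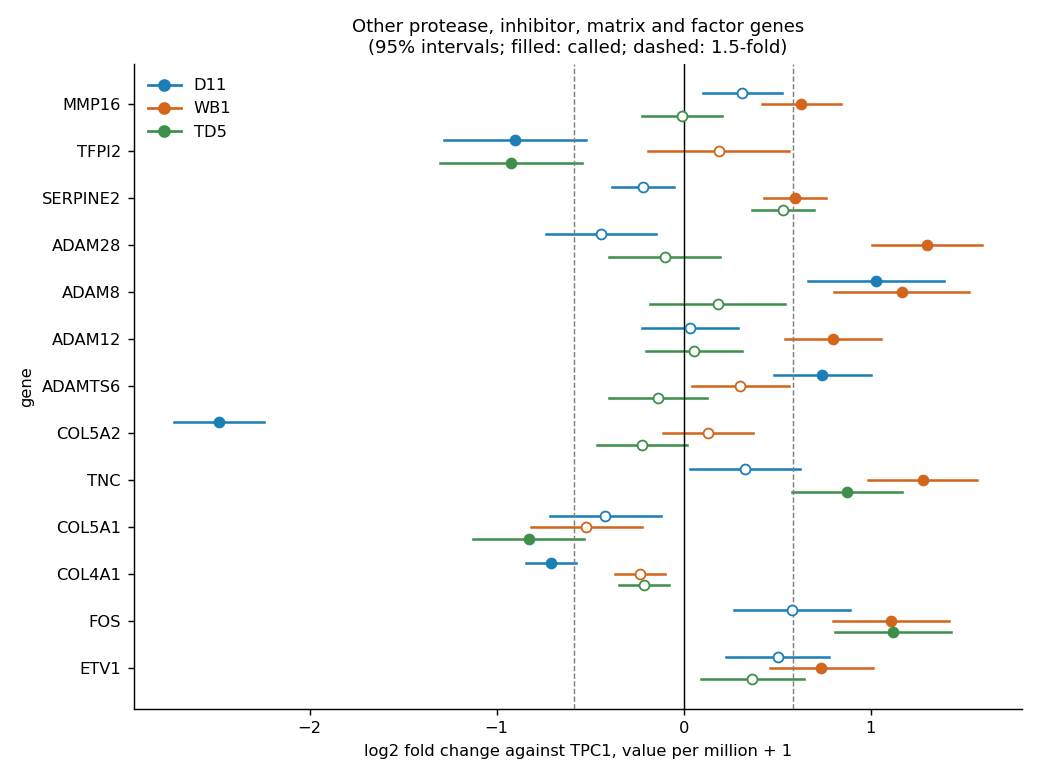
Log2 fold changes against TPC1 (horizontal axis, of the value per 1000000 + 1) of the 13 named list genes called in at least 1 clone, with 95% intervals, coloured by clone; filled points were called and dashed lines mark 1.5-fold. COL5A2 in D11 (−2.48) is the lowest point, and TFPI2 is filled in D11 and TD5 but not in WB1.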

How the data were processed

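RNA of 12 libraries (TruSeq stranded mRNA) was sequenced paired-end. By the submitters' processing notes the authors mapped reads with STAR 2.5.3a to GRCh38 and counted them with HTSeq 0.9.1 on Ensembl release 90, and each library was brought to 20000000 aligned reads. What was deposited is a score, whole numbers summing to 20009833 to 20014191 per library, and not raw counts; whether counting used the strand is not given in the sources used here. Estimates of 12700000 to 21020000 reads per library came from whole numbers missing at regular steps, and in TPC1 replicate 1 from the likelihood of the values. Libraries were grouped by title.

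For the 16027 genes that reached 1 per 1000000 in 3 or more libraries, log2(value per 1000000 + 1), relative to the sum of each library, entered a limma model (version 3.58.1, R 4.3.3) with a mean-variance trend and 1 mean per line. The study's own test is one for counts and was not used. The fit was tested on simulated data. Genes named in the text are the 9 members, DICER1, for each list up to 4 genes called against TPC1 with the largest change, RECK, MMP9 and TIMP4 whatever their values, and the 3 genes most correlated with each tested member other than MMP3, whose mean is under 1 per 1000000. Overlapping genes and markers are named in addition. The members and lists were chosen with earlier results of these data known. Protein motifs named in the plan were not searched, and some genes of the lists are not reported here. Alternatives covered the filter, pseudocount, scaling, corrections for GC content and transcript length (available for 99.1% of tested genes), the libraries fitted, a replicate block and leaving out each library; a block in a fit of D11 and TD5 alone was chosen after seeing the data. Same-numbered libraries of D11 and TD5 deviated together (r = 0.11, 0.17 and 0.35), and no other pair of lines had r above 0.1 for each number. Negative values of similar size stood in other pairs, as for WB1 and TD5 (r = −0.07, −0.22 and −0.27). The numbers were taken to pair D11 with TD5 from these values alone, although no label says what a number marks. Gene places and lengths came from GENCODE v44 (GRCh38), and promoters from RefSeq. Tables and plots were made in Python 3.11.15 (matplotlib 3.10.9, pandas 2.3.3, numpy 2.4.6, scipy 1.17.1).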

Additional observations from a re-analysis of the deposited data

Results flagged for a closer look

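The 5 differences between clones named here are listed because the test of the difference itself passed both thresholds (limma, adjusted p under 0.05 and at least 1.5-fold), which also makes it a difference of the clones' effects against the shared TPC1 libraries. For MMP1, TD5 against D11 gave a log2 difference of 0.86 (adjusted p = 0.000634), with TD5 higher in 3 of 3 libraries than each D11 library. For MMP2, WB1 against D11 gave 0.66 (adjusted p = 0.000967). For PLAU, WB1 against D11 gave 0.60 (adjusted p = 7.48e-06). For MMP3, WB1 against D11 gave 0.87 (adjusted p = 0.00658) and TD5 against WB1 −0.95 (adjusted p = 0.00402), in a gene that passed the filter only through the WB1 libraries. Groups of 3 libraries were too small for a check of single outlying libraries.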

How the results depend on the processing

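The counts of called members moved in places. In D11 against TPC1 the count was 1 under median-of-ratios scaling, 1 with a correction for transcript length (TIMP2 in both) and 2 with no minimum fold; the main count was 0. A pseudocount of 4 gave 0 in WB1 and 0 in TD5 against TPC1, 0 in TD5 against D11 and 0 in TD5 against WB1. No minimum fold gave 5 in WB1, 2 in TD5, 2 in TD5 against D11, 5 in WB1 against D11 and 3 in TD5 against WB1. Leaving out 1 library gave 0 to 1 in WB1, 0 to 1 in TD5, 1 to 3 in WB1 against D11 and 0 to 1 in TD5 against WB1, where leaving out a WB1 library took MMP3 below the filter and the calls of MMP1 in TD5 were lost without TD5 replicate 2 or 3. Over the genes tested, called genes numbered 775, 799, 417, 640, 456 and 373 in D11, WB1 and TD5 against TPC1, TD5 against D11, WB1 against D11 and TD5 against WB1; a pseudocount of 4 gave 295, 339, 180, 283, 213 and 140, a pseudocount of 0.1 gave 1188 in D11, 1233 in WB1, 987 in TD5 against D11 and 569 in TD5 against WB1, and no minimum fold gave 5329, 4956, 1906, 3721, 1293 and 2186. The share of higher calls moved with the scaling: in D11, 463 of 775 were higher, and 340 of 705 under median-of-ratios scaling, 262 of 583 with the GC correction and 301 of 670 with the length correction; in WB1 these were 544 of 799, 418 of 749, 391 of 646 and 399 of 718.

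Values that turned direction were small. With the GC correction, with or without the replicate block, TIMP1 was 0.03 in D11 and 0.068 in WB1, PLAUR 0.021 in D11, and MMP3 0.014 in TD5 against D11; MMP14 was 0.003 in TD5 against WB1 under median-of-ratios scaling. Leaving out 1 library moved TIMP1 in WB1 over −0.061 to 0.023, in TD5 MMP2 over −0.11 to 0.091, MMP14 over −0.021 to 0.094, PLAU over −0.055 to 0.086 and PLAUR over −0.029 to 0.066, and in TD5 against WB1 MMP14 over −0.14 to 0.032 and TIMP2 over −0.055 to 0.053. The lower TIMP2 of the 3 clones kept its direction under each alternative run. The replicate block cannot move a difference, because each line has the same replicate numbers, so TIMP2 at −0.55 in D11 with the block is no check. Only p-values could move, and no call of a member changed, also in the fit of D11 and TD5 alone. Passes on p whatever the fold did move. PLAU in D11 lost its pass (limma adjusted p = 0.0445, and 0.0728 with the block), as did PLAUR in WB1. MMP14 in TD5 against D11 gained a pass. Of 1094 comparisons of a gene's value with its main value, 1041 kept direction and side of the threshold, 12 lost a call, 16 gained one and 25 turned direction. The cause was not tested. These numbers do not measure stability, because several settings repeat the main value by design. Such settings are the replicate block, the fit of only the lines compared, no minimum fold, and leaving out a library of a line not compared. Most of the gained calls came from dropping the minimum fold. MMP1 and MMP3 are limited by depth, at 4.1 to 56.3 estimated reads a library.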
